A study of Mus musculus with 6 samples.

Results

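The 10 genes described here are 6 members of the BCL2 family (Bcl2l11, Bid, Bbc3, Pmaip1, Bax and Mcl1) and 4 classical targets of the tumour suppressor p53 (Cdkn1a, Mdm2, Btg2 and Perp), chosen by symbol. All 10 were found among 27151 genes in the deposited table. RNA was sequenced from mouse granulosa cells, the somatic cells of the ovarian follicle, in 3 control and 3 GSK4112 libraries. The cells of both groups were released by puncturing follicles in a medium that held milrinone, grown in serum for 24 h, held without serum for 12 h and then given medium without or with GSK4112 for another 24 h, renewed every 12 h. GSK4112 is a synthetic ligand that activates NR1D1, also called REV-ERBα, a nuclear receptor and transcriptional repressor of the circadian clock. The labels give the agonist's amount in a unit that is no concentration, so it is omitted, and they give no strain, age or genotype of the mice. The submitters' design text places the treatment in vivo, whereas their protocol describes cultured cells. Whether libraries are separate cultures or animals is not labelled, and p-values therefore reflect the variation among these 6 libraries, which may be technical.

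BCL2 family proteins decide whether the outer mitochondrial membrane is opened, the step that commits most cells to apoptosis. Pro-survival members such as MCL1 hold the pore-forming members BAX and BAK in check, and the BH3-only proteins (BIM, BID, PUMA and NOXA, from Bcl2l11, Bid, Bbc3 and Pmaip1) bind the pro-survival members or activate the pore-formers. The transcription factor p53 induces several of these genes together with the cell cycle inhibitor p21 (Cdkn1a), its own ubiquitin ligase MDM2, the antiproliferative protein BTG2 and the membrane protein PERP. In the ovary, apoptosis of granulosa cells is the hallmark of follicle atresia, and withdrawal of serum or of trophic hormone is a standard way to provoke it in culture.

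Levels are given as FPKM (fragments per kilobase of exon, scaled to the library's size), which can be compared between genes. Differences are GSK4112 minus control on the log2(FPKM + 1) scale, which understates changes of low genes, with the standard error (SE) and Benjamini-Hochberg adjusted p of limma over the 12181 genes whose mean FPKM was 1 or more. A gene is called when its adjusted p is under 0.05, and rose or fell is written only of called genes. Since FPKM is relative to the whole library, fewer cells of a type and less RNA per cell cannot be told apart.

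Depth was 16559256 to 18158273 fragments per library. The libraries with replicate number 1 stood apart from the rest in both groups. They were the only libraries with negative scores on the leading principal component (-38.59 for control and -13.38 for GSK4112, with 49.4% of the variance). Replicates 2 and 3 scored 1.05 and 2.29 in control and 26.6 and 22.1 with GSK4112, so this component also differed between the groups within each replicate number. The 10 mitosis markers added up to 140.4 and 107.2 FPKM in the replicate 1 libraries and 17.3 to 39.8 in the other 4. Results are therefore also given with a term for the replicate number (the replicate block) and without both replicate 1 libraries. The granulosa markers Inha (1370 to 2245 FPKM) and Foxl2 (29.9 to 64.4 FPKM) were present in every library, while Amh (0.247 to 0.658) and Cyp19a1 (0.011 to 0.173) were nearly absent. The granulosa list moved with the groups, with sums of 2975, 3615 and 3549 FPKM in control and 2148, 2677 and 2888 with GSK4112. None of its 10 tested genes had a positive difference, and 2 fell without and 4 with the block (median log2 difference -0.63). Over all genes 0.624% fell without and 3.82% with the block. Fst, the gene of the activin antagonist follistatin, fell from 73.6 ± 15.4 to 24.0 ± 2.38 FPKM (SD, n = 3; limma adjusted p = 0.0187). The 10 theca and stroma markers summed to 289.2, 115.6 and 94.8 FPKM in control and 205.6, 118.8 and 132.3 with GSK4112, and the 8 macrophage and leukocyte markers to 42.0, 14.0 and 7.46 and to 38.2, 17.1 and 19.5, both highest in the replicate 1 libraries. The 7 oocyte markers summed to 0.109 to 3.67 FPKM and the 6 endothelial markers to 0.546 to 1.02. The part of these lists in the members' differences was not tested.

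Without the block, limma called none of the 9 members that passed the filter, in either direction. Over all genes it called 1.03%, of which 50 genes (0.41%) were higher and 76 (0.624%) lower, or 44 and 117 with median-of-ratios scaling. At an unadjusted p under 0.05 there were 5 of the 9 (Bax, Mcl1, Bcl2l11, Bid and Bbc3), against 17% of all genes. Limma-voom on fragments recovered from the FPKM steps called none either. With the replicate block, Bcl2l11 and Bid rose and Btg2 and Perp fell, 4 of 9 members against 6.89% of all genes (3.07% higher and 3.82% lower). Without both replicate 1 libraries Bcl2l11, Bid and Bax rose and Perp fell, 4 of 9 against 6.92% (3.17% higher and 3.75% lower). The groups did not overlap for 4 members (Bcl2l11, Bax, Bbc3 and Mcl1), which is 4 of 9 against 23.6% of all genes tested (15.7% above control and 7.9% below). The members were chosen with earlier results of these data known, so these shares are descriptions.

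**Figure D1:**
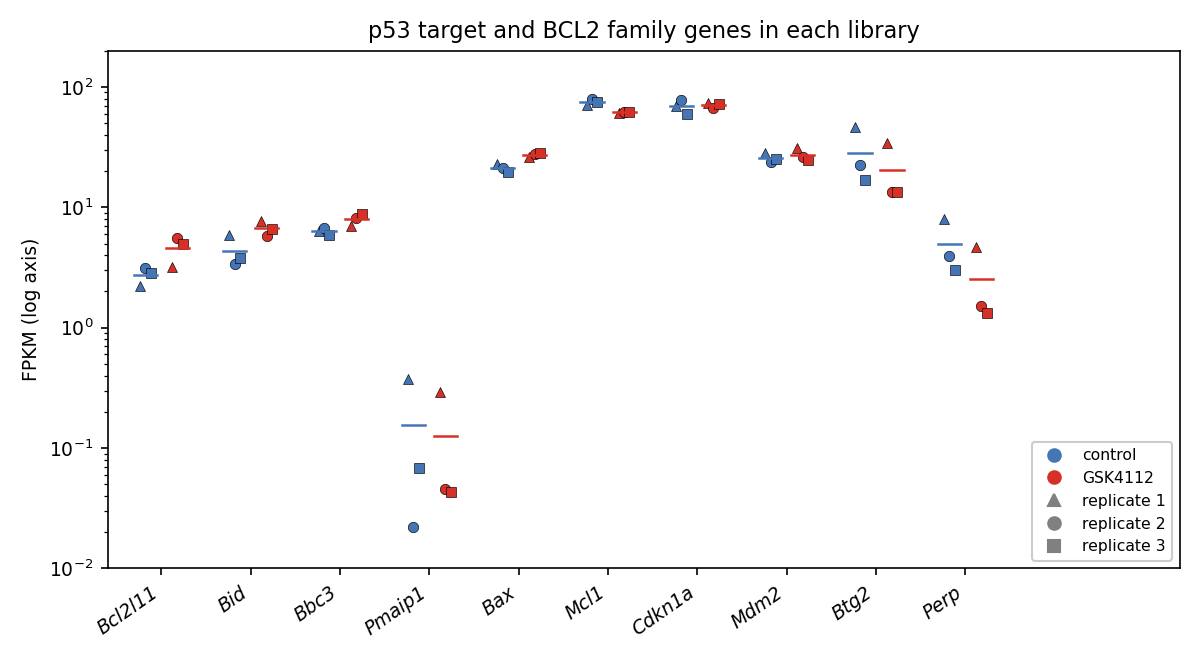
FPKM of the 10 genes in each library on a log axis, control in blue and GSK4112 in red, with the replicate number as the marker shape and a bar at the mean of 3 libraries. Bcl2l11, Bax and Bbc3 lay higher in all GSK4112 libraries and Mcl1 lower, while Btg2, Perp and Pmaip1 were highest in the replicate 1 libraries of both groups.

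The BH3-only genes Bcl2l11, Bid and Bbc3 had higher means with GSK4112. Bcl2l11 encodes BIM, which binds all pro-survival members and is a well-known mediator of death after loss of growth factors. The gene (ENSMUSG00000027381; GRCm38 chr2:128126038-128162547, plus strand) was at 2.24, 3.11 and 2.83 FPKM in control replicates 1, 2 and 3 and at 3.18, 5.58 and 4.93 in GSK4112 replicates 1, 2 and 3. All GSK4112 values lay above all control values, but GSK4112 replicate 1 only just did, and each group's lowest library was its replicate 1. The ratio of the means was 1.68, and the log2 difference was 0.56 ± 0.193 (SE, n = 3 per group, limma adjusted p = 0.221). With the block the same difference had an SE of 0.110 and limma's adjusted p was 0.0384. Without both replicate 1 libraries it was 0.65 (adjusted p = 0.0301, limma). The values rest on 326 to 742 fragments per library.

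Bid encodes the BH3-only protein that caspase-8 cleaves, which links death receptors to mitochondria. The gene (ENSMUSG00000004446; GRCm38 chr6:120891930-120916853, minus strand) was at 5.89, 3.41 and 3.79 FPKM in control replicates 1 to 3 and at 7.68, 5.75 and 6.66 in GSK4112 replicates 1 to 3. Control replicate 1 lay above GSK4112 replicate 2, so the groups overlapped, yet GSK4112 was higher within each of the 3 replicate numbers, by 0.33, 0.61 and 0.68 on the log2 scale. The mean rose 1.53-fold (log2 difference 0.54 ± 0.106 SE with the block, n = 3 per group, adjusted p = 0.0375 in limma). Without the block the SE was 0.19 and limma's adjusted p 0.227, and with median-of-ratios scaling and the block the adjusted p was 0.0509. Of Bid's exon bases, 17.7% overlap exons of Bcl2l13 on the opposite strand, and without a stated strand setting reads of the shared part cannot be assigned. Bcl2l13 itself went the other way, from 14.2 ± 0.767 FPKM (SD, n = 3) in control to 12.2 ± 0.686 with GSK4112, and was not called (adjusted p = 0.277, limma).

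Bbc3 encodes PUMA, the BH3-only protein through which p53 kills many cell types. Its level (ENSMUSG00000002083; GRCm38 chr7:16308393-16318205, plus strand) was 6.30, 6.74 and 5.94 FPKM in control and 6.99, 8.13 and 8.83 in GSK4112 libraries, replicates 1 to 3. The groups did not overlap, with a gap of 0.25 FPKM between the highest control and the lowest GSK4112 library. The log2 difference of 0.29 ± 0.105 (SE, n = 3 per group) was not called without the block (adjusted p = 0.239), with it (0.149) or without both replicate 1 libraries (0.0959), all in limma.

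The upstream 250 bases of Bcl2l11 and Bid are shown because both genes rose with the block. Sequences are RefSeq's on GRCm38.p6, read along the gene's strand up to the last base before the start site, and capitals mark matches on either strand to the GC box (GGGCGG), the CCAAT box (letters CCAAT), the FOXO site (GTAAACA), the E-box (CACGTG), the REV-ERB and ROR core (AGGTCA) or the p53 decamer, 1 of the pair of decamers that a p53 tetramer binds. Adjacent matches can overlap.
Bcl2l11, chr2:128125788-128126037, plus strand: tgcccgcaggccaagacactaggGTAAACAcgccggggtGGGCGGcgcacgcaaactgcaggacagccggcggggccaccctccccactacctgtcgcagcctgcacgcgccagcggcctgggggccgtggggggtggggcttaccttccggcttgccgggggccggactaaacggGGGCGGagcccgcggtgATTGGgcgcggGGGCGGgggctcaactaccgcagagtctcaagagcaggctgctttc
Bid, chr6:120916825-120917074, minus strand: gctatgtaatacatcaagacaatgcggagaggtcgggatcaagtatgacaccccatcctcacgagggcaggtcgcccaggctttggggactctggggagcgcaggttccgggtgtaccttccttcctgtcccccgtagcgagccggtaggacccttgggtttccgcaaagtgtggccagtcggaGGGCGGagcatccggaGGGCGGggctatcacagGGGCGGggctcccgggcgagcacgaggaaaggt
Both windows were rich in G and C (72% and 63.6%, against a median of 52.4% over 32851 promoter windows of the same length). The window of Bcl2l11 is that of its more upstream RefSeq start and held a FOXO site 227 bases before it, a match found in 3.17% of all windows. The window of its second start (chr2:128127325-128127574) held none. The FOXO site matched in 3 of the 12 windows kept for 8 members. The others were windows of Bbc3 and Mdm2, which were not called. Bid held 3 GC boxes, which 32.7% of windows have at least once. Neither of the windows shown here, of Bcl2l11 and Bid, held the REV-ERB and ROR core, which 14% of windows have. The TATA box (TATAAA, in 12.4% of windows) and the C/EBP-ATF composite site (TTGCATCA, in 0.791%) were searched too. They matched in none of the 12 windows kept for 8 members. Perp had no RefSeq window, and Pmaip1 was left out of these windows. A match is a description of letters, and a missing match speaks only of this window.

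Among the remaining BH3-only genes of a list of 8, Bmf behaved like Bcl2l11. Bmf encodes a BH3-only protein first tied to detachment of cells from their matrix, and it rose with the block from 8.26 ± 2.28 to 14.7 ± 1.92 FPKM (SD, n = 3; log2 difference 0.78, limma adjusted p = 0.0155, and 0.126 without the block). Its values were 5.89, 10.4 and 8.46 in control and 12.5, 15.4 and 16.0 with GSK4112, so the groups did not overlap. Bad, whose product links growth factor kinases to the family, was at 13.7 ± 0.764 and 14.7 ± 1.29 FPKM (adjusted p = 0.665, limma). Of the 5 BH3-only genes that passed the filter none was called without the block and 3 rose with it, against 3.07% of all genes. Their median log2 difference was 0.54, against 0.05 over all genes tested. The other 3 (Bik, Hrk and Pmaip1) were under the filter.

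Pmaip1 encodes NOXA, a BH3-only protein that binds MCL1. It (ENSMUSG00000024521; GRCm38 chr18:66458533-66465565, plus strand) was nearly silent and under the filter in every library, at 0.375, 0.022 and 0.068 FPKM in control and 0.291, 0.046 and 0.043 with GSK4112. Only the replicate 1 libraries held more than a few fragments of it (1.03 to 18.6 over all libraries with the annotated exon length, which is not exactly the one the authors used).

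The pore-forming member Bax followed the same direction. Bax (ENSMUSG00000003873; GRCm38 chr7:45461697-45466898, minus strand) was at 22.9, 21.4 and 19.7 FPKM in control replicates 1 to 3 and at 26.1, 27.9 and 28.4 in GSK4112 replicates 1 to 3. The lowest GSK4112 library was 3.16 FPKM above the highest control, and the spread within each group was small. The ratio of the means was 1.29 and the log2 difference 0.35 ± 0.0853 (SE, n = 3 per group), with an adjusted p of 0.114 in limma and 0.0802 with the block. Without both replicate 1 libraries Bax rose by 0.44 on the log2 scale (limma adjusted p = 0.0418). Exons of Gm45808, on the same strand, cover 12.2% of its exon bases. Its partner Bak1, the other executioner of the mitochondrial membrane, was at 14.4 ± 1.999 and 13.1 ± 1.08 FPKM (SD, n = 3; adjusted p = 0.627, limma). Bok, another pore-forming relative known to be abundant in reproductive tissues, was at 33.4, 50.3 and 37.9 FPKM in control and 37.7, 72.6 and 72.1 with GSK4112. Its groups overlapped through GSK4112 replicate 1. Bok was called without both replicate 1 libraries (limma adjusted p = 0.0416), but not with all 6 (0.388) or with the block (0.0818).

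Mcl1 was the most abundant of the 6 BCL2 family genes and the one among the 5 tested that lay lower with GSK4112. It encodes a short-lived pro-survival protein that restrains BIM, NOXA and BAK. Its level (ENSMUSG00000038612; GRCm38 chr3:95658788-95663176, plus strand) was 70.4, 79.2 and 75.1 FPKM in control and 60.4, 62.0 and 61.8 with GSK4112, replicates 1 to 3. The 3 GSK4112 libraries were within 1.54 FPKM of each other, and all lay below every control library. With 3492 to 4672 fragments per library its counting error was small. The log2 difference of -0.28 ± 0.0776 (SE, n = 3 per group) was nevertheless not called, with an adjusted p of 0.148 in limma, 0.108 with the block and 0.0895 without both replicate 1 libraries.

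The other tested pro-survival genes, Bcl2l1 and Bcl2l2, did not share Mcl1's direction. Bcl2l1, the gene of BCL-XL, was at 20.97 ± 3.07 and 21.4 ± 1.31 FPKM (SD, n = 3; adjusted p = 0.917, limma). Bcl2l2, the gene of BCL-W, was at 12.2 ± 0.662 and 15.0 ± 0.636, higher in all GSK4112 libraries but not called (adjusted p = 0.15, limma). Bcl2 itself was under the filter and higher in all GSK4112 libraries, at 0.86, 0.55 and 0.578 FPKM in control and 1.09, 0.996 and 0.905 with GSK4112. Bcl2l10, the gene of a relative known from oocytes, was listed at 0 to 0.246 FPKM on at most 5 fragments per library, and was lower with GSK4112 within each replicate number. None of the 3 pro-survival genes tested, Mcl1 included, was called in either fit, and their median log2 difference was 0.03. Mcl1 held 65.4%, 70.6% and 69.9% of the summed FPKM of the pro-survival list in control replicates 1 to 3 and 61.0%, 62.7% and 62.3% in GSK4112 replicates 1 to 3.

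Set beside each other per length, Mcl1 exceeded Bcl2l11 by 31.5, 25.5 and 26.6 times in control replicates 1 to 3 and by 19, 11.1 and 12.6 times with GSK4112. The ratio of Mcl1 to Bax was 3.08, 3.71 and 3.82 in control and 2.32, 2.22 and 2.18 with GSK4112. Both of these ratios were lower in every GSK4112 library than in any control library. This follows from the single genes and adds nothing to them, since Mcl1 lay lower and Bcl2l11 and Bax higher in every GSK4112 library. The ratio of Bax to Bcl2 was 26.6, 38.8 and 34.1 in control and 23.9, 28.1 and 31.4 with GSK4112, so the groups overlapped, and it was lower with GSK4112 within each replicate number. The summed FPKM of the 8 BH3-only genes was 35.1, 38.6 and 34.5 in control and 46.2, 51.1 and 50.3 with GSK4112, while the pro-survival sum was 107.7, 112.1 and 107.4 in control and 99.1, 98.9 and 99.3 with GSK4112. As a share of the pro-survival sum the BH3-only sum was 32.6%, 34.4% and 32.1% in control and 46.6%, 51.7% and 50.7% with GSK4112. These ratios and sums compare transcript levels, not proteins, and carry no test, because the genes were chosen with results known.

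**Figure D2:**
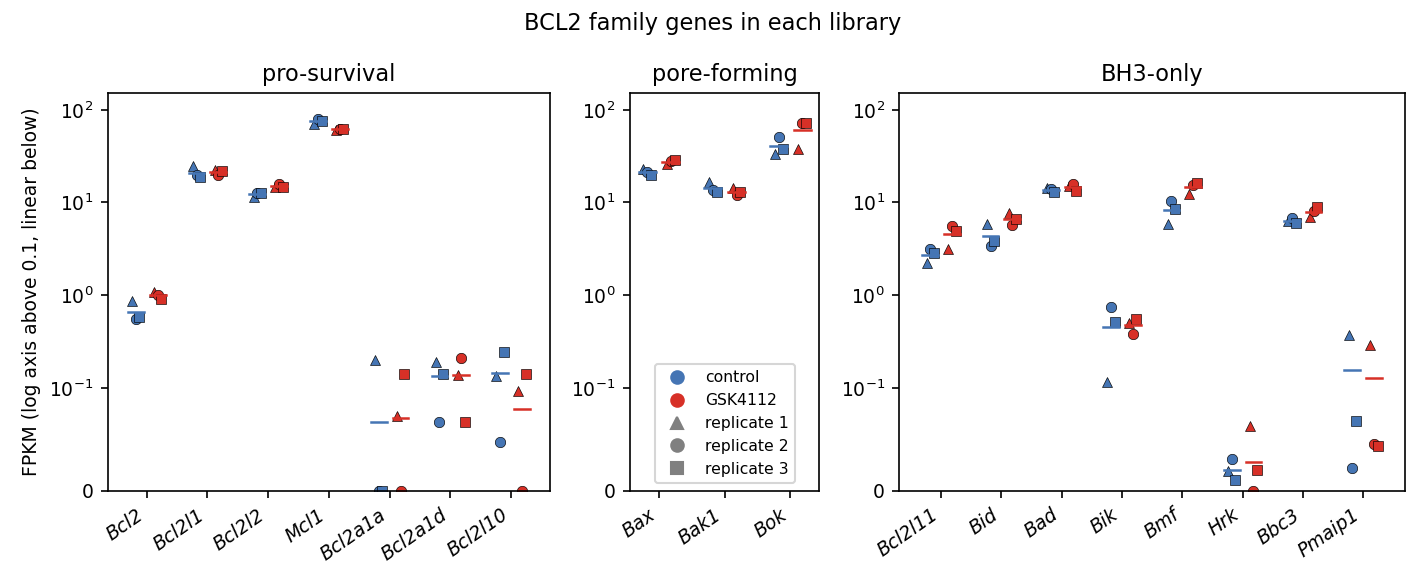
FPKM of the BCL2 family genes in each library (logarithmic above 0.1, linear below), grouped by role, control in blue and GSK4112 in red, with the replicate number as the marker shape and a bar at the mean of 3 libraries. Mcl1 led the pro-survival genes at 60.4 to 79.2 FPKM and lay lower in every GSK4112 library. The pro-survival genes Bcl2 and Bcl2l2, the pore-forming Bax and the BH3-only Bmf, Bcl2l11 and Bbc3 lay higher in every GSK4112 library.

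The p53 targets outside the BCL2 family did not move together. Cdkn1a, the gene of the cyclin-dependent kinase inhibitor p21 and the most used readout of p53 activity, had a mean of 68.9 FPKM in control and 71.2 with GSK4112. Its level (ENSMUSG00000023067; GRCm38 chr17:29090976-29100727, plus strand) was 69.3, 77.9 and 59.3 FPKM in control and 73.5, 67.2 and 72.8 with GSK4112, replicates 1 to 3. The treated values all lay within the range of the control values. The log2 difference was 0.05 ± 0.115 (SE, n = 3 per group, adjusted p = 0.843 in limma), with a 95% interval from -0.22 to 0.33. Mdm2, the gene of p53's ubiquitin ligase (ENSMUSG00000020184; GRCm38 chr10:117688875-117710758, minus strand), was at 28.2, 23.9 and 25.1 FPKM in control and 31.1, 26.0 and 24.8 with GSK4112. Its groups overlapped, and the difference was 0.08 ± 0.113 (SE, n = 3 per group, adjusted p = 0.765 in limma), with an interval from -0.19 to 0.35. The upper bounds of both intervals were close to the difference of 0.35 measured for Bax.

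The upstream windows of Bax, Cdkn1a and Mdm2 are shown because, among the 8 members whose windows were kept, these 3 held a p53 decamer. The match was in 3 of the 12 windows of these 8 members and in 7.13% of all windows. Several members were chosen as known p53 targets, so these shares are descriptions. The windows were cut and marked as above. For Cdkn1a the more upstream of its start sites is shown.
Bax, chr7:45466899-45467148, minus strand: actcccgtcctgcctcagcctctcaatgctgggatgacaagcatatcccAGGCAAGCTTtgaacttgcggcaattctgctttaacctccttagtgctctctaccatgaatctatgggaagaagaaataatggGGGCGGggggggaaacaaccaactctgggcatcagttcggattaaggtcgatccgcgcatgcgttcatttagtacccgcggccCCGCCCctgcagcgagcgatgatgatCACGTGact
Cdkn1a, chr17:29090729-29090978, plus strand: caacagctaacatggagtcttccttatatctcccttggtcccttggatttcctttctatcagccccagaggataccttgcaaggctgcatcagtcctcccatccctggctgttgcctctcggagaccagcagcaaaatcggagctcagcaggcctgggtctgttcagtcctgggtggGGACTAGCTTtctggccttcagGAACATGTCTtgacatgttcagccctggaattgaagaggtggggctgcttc
Mdm2, chr10:117710759-117711008, minus strand: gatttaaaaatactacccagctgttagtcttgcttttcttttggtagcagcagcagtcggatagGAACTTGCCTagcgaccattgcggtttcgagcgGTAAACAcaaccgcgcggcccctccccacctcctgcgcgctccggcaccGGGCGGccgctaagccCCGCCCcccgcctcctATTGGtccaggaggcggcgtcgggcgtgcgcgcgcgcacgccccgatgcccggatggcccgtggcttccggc
The decamer lay 201 bases before the start of Bax and 186 bases before that of Mdm2. Cdkn1a held 2 of them, 73 and 51 bases before this start. Of the 3 genes only Bax lay higher in every GSK4112 library. Sites for p53 outside these windows were not searched.

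Btg2 and Perp lay lower with GSK4112 within each replicate number, over a large spread between replicate numbers. Btg2 encodes an antiproliferative protein that recruits the deadenylation machinery to mRNAs, and it is induced both by p53 and as an immediate early gene. Its level (ENSMUSG00000020423; GRCm38 chr1:134075170-134079120, minus strand) was 46.1, 22.3 and 16.8 FPKM in control and 34.0, 13.5 and 13.5 with GSK4112, replicates 1 to 3. GSK4112 replicate 1 lay above control replicates 2 and 3, so the groups overlapped widely. The log2 difference was -0.47 with an SE of 0.466 without the block (n = 3 per group, limma adjusted p = 0.652) and of 0.101 with it, where Btg2 fell (adjusted p = 0.0478). Without both replicate 1 libraries the difference was -0.49 and was not called (limma adjusted p = 0.0974).

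The window upstream of Btg2 is shown because, of the 8 members whose windows were kept, Btg2 alone held the REV-ERB and ROR core. The match lay 150 bases before the start and on the opposite strand.
Btg2, chr1:134079156-134079405, minus strand: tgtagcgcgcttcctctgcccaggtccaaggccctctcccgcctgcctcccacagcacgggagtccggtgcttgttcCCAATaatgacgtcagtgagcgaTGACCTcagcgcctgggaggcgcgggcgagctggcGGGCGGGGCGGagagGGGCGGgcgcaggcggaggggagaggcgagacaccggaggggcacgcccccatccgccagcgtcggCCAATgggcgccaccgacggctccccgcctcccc
The window also held 3 GC boxes, 2 CCAAT boxes and 27 CpG, against a median of 6 CpG over all windows. The core of 6 letters alone is found in 14% of windows.

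Perp, a tetraspan membrane protein of desmosomes and an effector of p53 in apoptosis, had the largest difference in size among the members. Its level (ENSMUSG00000019851; GRCm38 chr10:18845020-18857073, plus strand) was 8.04, 3.92 and 3.02 FPKM in control and 4.73, 1.52 and 1.33 with GSK4112, replicates 1 to 3. GSK4112 replicate 1 lay above control replicates 2 and 3, and within replicate numbers the log2 differences were -0.66, -0.97 and -0.79. With the block Perp fell by 0.80 on the log2 scale (SE 0.110, n = 3 per group, limma adjusted p = 0.0148), and without both replicate 1 libraries by 0.88 (limma adjusted p = 0.0284). Without the block the SE was 0.431 and the adjusted p 0.399. The GSK4112 values rest on 45 to 156 fragments per library.

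Marker lists moved with both genes. The 10 mitosis genes summed to 140.4, 36.3 and 39.8 FPKM in control and to 107.2, 19.6 and 17.3 with GSK4112. All 10 had a negative difference, and 5 of them fell with the block, against 3.82% of all genes. The 8 genes of ovarian surface epithelium summed to 122, 60.1 and 48.5 in control and to 49.0, 30.8 and 28.8 with GSK4112. Of 6 epithelial genes tested, 2 (Krt8 and Krt18) fell and 1 (Epcam) rose with the block, against 3.82% and 3.07% of all genes. The defining gene Upk3b was between 0.307 and 2.06 FPKM. The part of either list in the values of Btg2 and Perp was not tested. Without both replicate 1 libraries 8 of the 10 mitosis genes were called lower, against 3.75% of all genes. There the difference was -0.49 for Btg2, which was not called, and -0.88 for Perp, which was. Without control replicate 1 alone it was -0.06 for Btg2 and -0.46 for Perp, and neither was called.

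**Figure D3:**
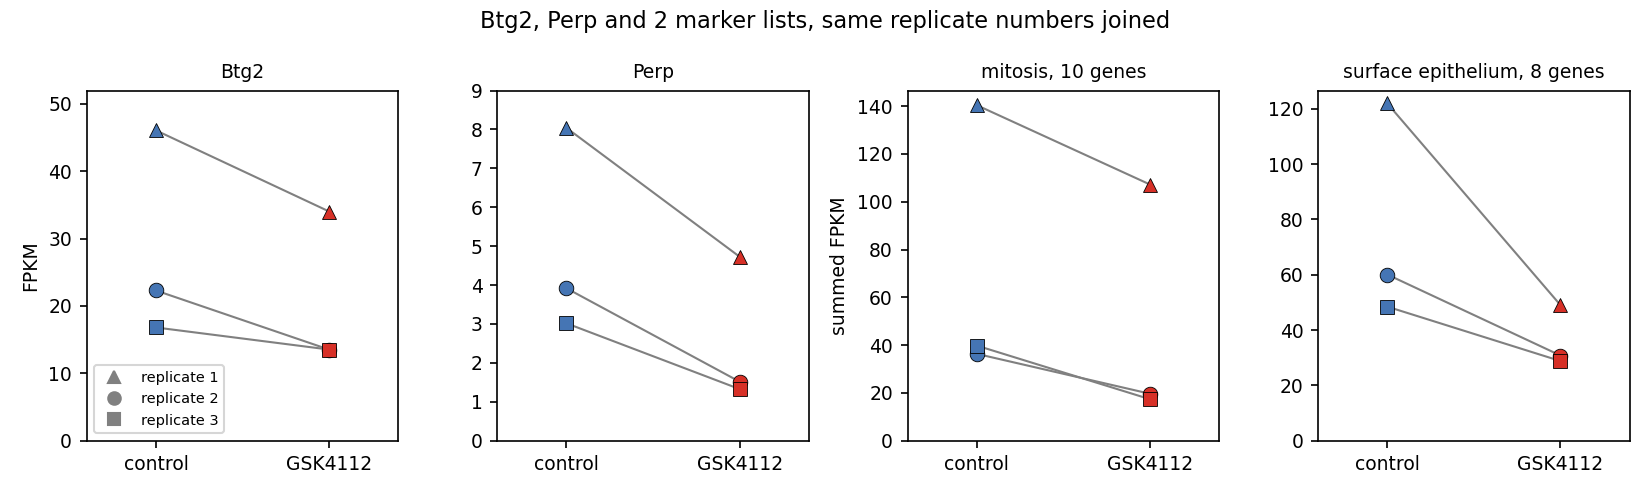
FPKM of Btg2 and Perp and summed FPKM of the mitosis and surface epithelium lists, with lines joining control (blue) and GSK4112 (red) libraries of the same replicate number. Replicate 1 lay highest in all 4 panels in both groups, and each line falls from control to GSK4112.

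**Figure D4:**
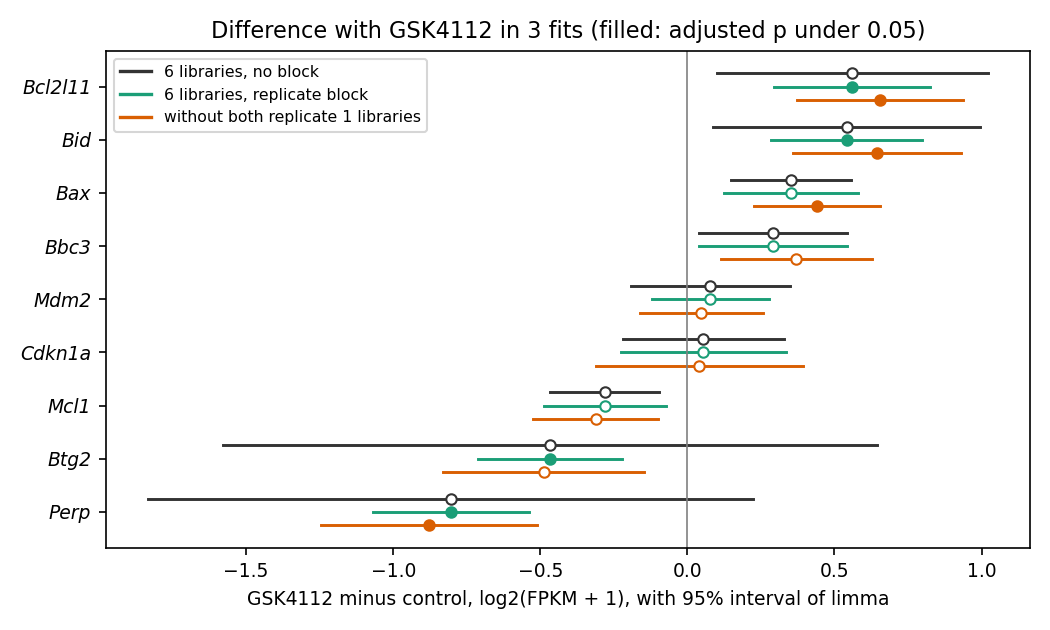
Difference between GSK4112 and control on the log2(FPKM + 1) scale for the 9 genes tested, with limma's 95% interval, from all 6 libraries without and with the replicate block and from 4 libraries without replicate 1. Filled points have an adjusted p under 0.05, and the block narrows the intervals of Btg2 and Perp most.

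Of 13 tested genes for p53 and its regulators none was called in either fit (median log2 difference 0.08, against 0.05 over all genes). Trp53, the gene of p53 itself, was at 35.5 ± 2.56 FPKM in control and 32.4 ± 3.82 with GSK4112 (SD, n = 3; adjusted p = 0.582, limma). The ratio of Mdm2 to Trp53 FPKM was 0.741, 0.726 and 0.705 in control and 1.09, 0.795 and 0.685 with GSK4112, so it overlapped. Of 31 other p53 targets tested none was called without the block, and only Sesn2 rose with it (median 0.11), a share near the 3.07% of all genes called higher in that fit. Sesn2 encodes sestrin 2, a stress-induced inhibitor of mTORC1, and went from 7.81 ± 1.17 to 10.8 ± 1.25 FPKM (adjusted p = 0.0385 with and 0.18 without the block, limma). The call was lost without both replicate 1 libraries (limma adjusted p = 0.0642) and with median-of-ratios scaling and the block (0.0537). The p53 targets Ccng1 (50.8 ± 17.3 and 60.0 ± 13.0 FPKM) and Phlda3 (9.24 ± 1.84 and 11.2 ± 3.32) were not called and were highest in the replicate 1 libraries. Sulf2, also on this list, went the other way, from 172.8 ± 8.27 to 128.1 ± 10.7 FPKM, and was lower in every GSK4112 library. It was not called (limma adjusted p = 0.0976, and 0.0507 with the block). Of the 31 targets 21 had a positive difference, as had 7415 of all 12181 genes tested.

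Factors known to induce BH3-only genes split in opposite directions. Foxo1, a forkhead factor that acts on Bcl2l11 and Bbc3 in other cells, fell from 24.9 ± 3.27 to 9.78 ± 0.343 FPKM (SD, n = 3; log2 difference -1.26 ± 0.109 SE, limma adjusted p = 0.0111). The call was lost without control replicate 3 (adjusted p = 0.0592), GSK4112 replicate 2 (0.0812) or GSK4112 replicate 3 (0.107). Its control values were 25.9, 21.3 and 27.6 and its GSK4112 values 9.9, 9.39 and 10.0. The related Foxo4 lay higher in every GSK4112 library (means of 11.5 and 15.1 FPKM) and was not called (limma adjusted p = 0.182, and 0.0507 with the block). Foxo3 had a higher mean with GSK4112 (15.2 and 17.6 FPKM) and was not called either (limma adjusted p = 0.555). Ddit3, the gene of the stress factor CHOP, which also acts on Bcl2l11 and Bbc3, was at 7.49, 9.98 and 11.2 FPKM in control and 16.5, 19.0 and 22.3 with GSK4112. It rose with the block (log2 difference 0.95, limma adjusted p = 0.0051) and missed the threshold without it (0.0591). Of the 7 such factors tested, 1 fell without the block, and 1 rose and 1 fell with it (median 0.07). Over all genes 0.624% fell without the block, and 3.07% rose and 3.82% fell with it.

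Of 17 genes for caspases, the apoptosome and inhibitors of apoptosis, which act downstream of the mitochondrion, none was called without the block, and with it only Aifm1 fell (median -0.01), a share near the 6.89% of all genes called in that fit. Aifm1 encodes a mitochondrial flavoprotein needed for the respiratory chain that can also act in caspase-independent death, and it went from 54.9 ± 8.36 to 37.9 ± 1.17 FPKM (SD, n = 3; adjusted p = 0.0399 with and 0.108 without the block, limma). Casp9, the initiator caspase on the apoptosome, was at 5.62 ± 0.285 and 5.96 ± 0.54 FPKM.

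The members with the smallest p were compared with all tested genes by the Pearson correlation of log2(FPKM + 1) over the 6 libraries, as a description of likeness only. The 3 genes most like Bax were Stx18 (0.996), Atp6v0b (0.992) and Tmem256 (0.991). Those most like Mcl1 were Fam136a (0.998), Cryl1 (0.997) and Smpdl3b (0.996). Those most like Bcl2l11 were Rhov (0.999), Smap1 (0.997) and Sec62 (0.996). With 6 libraries such values are common, since 422, 211 and 606 genes exceeded 0.9 for Bax, Mcl1 and Bcl2l11.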

How the data were processed

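The authors deposited 1 table of FPKM values for 27151 Ensembl genes in 6 columns, matched to samples by title. The submitters' processing notes give the build as GRCm38. The sources used here do not state the aligner, counter, annotation or strand setting. Symbols and exon lengths came from GENCODE M21 (27098 matched). FPKM times exon length moved in steps of 1 fragment, which gave the depth (of values under 500 fragments, 92.8 to 93.1% came out whole within 0.01).

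Genes whose mean FPKM was 1 or more entered limma 3.58.1 (R 4.3.3), fitted to log2(FPKM + 1) with a variance trend, 2-sided, at an adjusted p under 0.05. An exact permutation test of 3 against 3 cannot give a p below 0.1. The fit was tested on simulated data. These held no difference between replicate numbers, unlike the libraries here, so they cannot tell whether the block is apt. The deviations from the group means of libraries with the same replicate number correlated at 0.665, 0.326 and 0.213, and the limit for pairing was 0.1. No label gives this pairing. Control replicate 3 with GSK4112 replicate 2 correlated at 0.53, and control replicate 2 with GSK4112 replicate 3 at 0.357. Both exceed the same-number values of replicates 2 and 3 (0.326 and 0.213). The pairing of replicates 2 and 3 is therefore not settled, and both fits are given. Near-identical copies were searched with BLAST at 95% identity.

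All 10 members are named. From each list the genes called in either fit are named (up to 4), or the most abundant 2, and any other gene was picked with its values known. The members and lists were chosen with earlier results of these data known.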

Additional observations from a re-analysis of the deposited data

How the results depend on the processing

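The count of members called was 0 without the block, and it was 0 too in each of the 6 fits that left out 1 library. It was 2 with sample weights (Bax and Mcl1), 4 with the replicate block, 3 with median-of-ratios scaling and the block, 4 without both replicate 1 libraries and 4 with voom and the block, an alternative chosen after seeing the data. Over all genes, 126 calls became 26 without a filter, 830 with sample weights, 839 with the replicate block, 786 with median-of-ratios scaling and the block, 837 without both replicate 1 libraries and 1340 with voom and the block. Leaving out 1 library gave 0 to 149 calls, with 8 without control replicate 2 and 0 without control replicate 3, GSK4112 replicate 2 or GSK4112 replicate 3. Cdkn1a turned to -0.0084 with median-of-ratios scaling, with or without the block, and to -0.047 without control replicate 3, and ran up to 0.147 without control replicate 2. Mdm2 turned to -0.017 without GSK4112 replicate 1 and ran up to 0.143 without control replicate 1. The other 7 tested members kept their direction in every alternative that could be run. Btg2 ran from -0.89 to -0.06, the latter without control replicate 1. Perp and Bcl2l11 were not tested at a mean FPKM of at least 5. The cause of these changes was not tested. Depth limits Pmaip1 and the GSK4112 values of Perp.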

Other observations

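Among cell cycle brakes related to Cdkn1a and Btg2, Cdkn1b, the gene of the inhibitor p27, rose with the replicate block. It was at 40.2, 138 and 129 FPKM in control replicates 1 to 3 and at 73.3, 196 and 171 in GSK4112 replicates 1 to 3 (log2 difference 0.59, limma adjusted p = 0.0397 with the block and 0.636 without). The call was lost without both replicate 1 libraries (limma adjusted p = 0.0692) and with median-of-ratios scaling and the block (0.0578). The replicate 1 libraries, which held the most mitosis RNA, had the lowest Cdkn1b in both groups. Of 10 tested CDK inhibitors and BTG family genes, 1 rose (Cdkn1b) and 1 fell (Btg2) with the block and none was called without it. Over all genes 3.07% rose and 3.82% fell with the block. Among 6 tested desmosome partners of Perp, Pkp2, the gene of plakophilin 2, fell in both fits, from 31.0 ± 2.47 to 17.8 ± 2.25 FPKM (SD, n = 3; log2 difference -0.77, limma adjusted p = 0.0421, and 0.0148 with the block). Without the block, the call was lost with no filter (limma adjusted p = 0.099), without the variance trend (0.0504) and in 5 of the 6 fits that left out 1 library (0.0578 to 0.216, all but that without GSK4112 replicate 1). The desmosomal genes Dsp (8.97 ± 1.71 and 10.0 ± 1.12 FPKM) and Jup (17.5 ± 1.43 and 21.8 ± 3.1) were not called.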
